A study of Canis lupus familiaris with 60 samples.

Results

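The comparison described here sets skin 24 hr after an allergen patch against untreated skin of the same sensitized dogs, and it uses 11 of the 60 arrays of the series. It takes all 5 usable arrays of the 24 hr allergen site (dogs 2838, 2840, 2841, 2853 and 2855) and all 6 arrays of untreated skin at 0 hr (the same dogs and dog 2839), so that 5 dogs give a pair. Dog 2839 lacks a pair because the RNA of its 24 hr biopsy was degraded, and that array was left out. All were Beagles aged 2 to 3 yr, 4 of them male and 2 female, in which sensitization against Dermatophagoides farinae, a house dust mite, had been induced. The patch held 75 mg of mite allergen paste on skin clipped 4 days earlier, and each biopsy was an 8 mm punch taken under local lidocaine. Untreated skin was sampled in the same dogs before any patch was placed. The 24 hr saline sites of these 6 dogs (50 µl of saline under the same kind of patch) and the untreated and 24 hr allergen sites of 6 nonsensitized Beagles (2 male, 4 female) appear only as reference groups. Each array is 1 biopsy, labelled with Cy3 and read in 1 colour.

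Sensitized dogs carry IgE antibodies to mite proteins, and contact with the allergen through the skin can start an eczematous reaction within a day, which is why patch tests serve as a model of atopic dermatitis. In such reactions keratinocytes, mast cells and dermal dendritic cells release chemokines and cytokines, the endothelium shows adhesion molecules, and monocytes, granulocytes and T helper cells enter the dermis. The epidermal barrier rests on cross-linked proteins of the cornified layer and on tight junctions, and type 2 cytokines are known to lower the making of several of these proteins.

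Slides and scans did not fall evenly over the 2 sides. The 24 hr arrays lay on slides 2, 3 and 8 and the untreated arrays on slides 6, 7 and 8, and only dog 2840 had both of its arrays on 1 slide. By scan session, as the file headers give it, dogs 2838 and 2840 had both arrays in 1 session and the other 3 dogs had not. The share of spots well above background ran from 71.06% to 80.15% in untreated skin and from 73.95% to 76.25% in the 24 hr arrays. The 24 hr sites also differ from untreated skin by the patch and bandage, the time passed and the earlier biopsies of the same dogs. In this comparison the part of these cannot be told apart from that of the allergen. Where only the slide or the session separates the sides, its part in a difference cannot be told apart either. Values with the slide or session as a block stand beside some of the results. With the slide as a fixed block the estimate rests on slide 8, where the 24 hr side is the 1 array of dog 2840, so that its values and p read that dog and say little of the other 4. All arrays carried skin signal: KRT1, KRT2, KRTDAP, DSG1, COL1A1, COL1A2 and DCN, markers of keratinocytes and dermal fibroblasts, were well above background on all 11 arrays, and KRT1 lay at percentile 98.3 of the tested probes.

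At 24 hr the skin of the sensitized dogs had higher levels of genes for chemokines, cytokines, monocyte and macrophage proteins and antigen presentation, and lower levels of genes for the cornified layer and for tight junctions. S100A8 rose 27.9-fold and CCL17 14.8-fold, while the oxidase gene AOX4 fell by 2.95 on the log2 scale. Of 40566 identifiers tested, 3031 were higher (7.47%) and 2812 were lower (6.93%) where calls needed both an adjusted p under 0.05 and a 1.5-fold change (limma, dog as a random block), and 6 of these counted in both directions through different probes. Large changes were mostly rises, with 121 identifiers up and 9 down by at least 4-fold. The median difference over all probes was -0.03 on the log2 scale. Values are log2 signals after variance stabilization, a scale that shrinks the fold of dim genes, so that folds of weakly expressed genes are underestimates of the change in signal.

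The number of lower genes varied with the scaling, the session and the dogs. With each array scaled to its 75th percentile, 2940 identifiers were higher and 5915 lower, the median over all probes moved to -0.12, and the higher ones made up 33.2% of the calls in place of 51.9%. Quantile scaling gave 3908 lower identifiers and normexp with quantile scaling 2095, the session as a block 1703, and leaving out dog 2840, 2841 or 2853 gave 3706, 1922 or 1955. Most identifiers that changed carry no symbol in the files, namely 2569 of the higher and 2604 of the lower ones. The largest change of all belonged to ENSCAFT00000027825, which the files do not pair with a gene and which was picked after its values were seen, with a log2 rise of 5.18 (SE 0.39, adjusted p 3.94e-06, higher in 5 of 5 dogs).

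The 1265 named genes tested are not a fair draw from the array, since 445 of them are in the study's own list of DEG, which was chosen on these samples and is no independent evidence of direction. Among named genes 357 were higher (28.2%) and 170 lower (13.4%). Outside the study's list the counts were 100 higher (12.2%) and 54 lower (6.59%) of 820, and these shares are the background against which the gene lists are read. A biopsy is a mixture of cells, so that more cells of a type and more RNA per cell cannot be told apart in any result that follows.

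Chemokines, the small proteins that draw leukocytes into tissue, formed the group with the most large rises. Of 23 measured, 18 rose, 1 fell (CCL25) and 4 did not pass the test, with a median difference of 1.46. The fall of CCL25 (-0.67) lost its call with the slide and with the session as a fixed block. Outside the study's list 8 of 13 rose and 1 fell. CCL17, the ligand that attracts CCR4-bearing type 2 T cells, had log2 signals in untreated skin from 6.94 to 10.76 with a median of 7.15. At 24 hr the signals of CCL17 were 11.33, 10.39, 10.27, 13.78 and 12.34 in dogs 2838, 2840, 2841, 2853 and 2855. The untreated array of dog 2853 alone reached into the 24 hr range, and that dog also had the highest value at 24 hr. Within each dog CCL17 was 2.94 to 5.01 higher, and the fitted rise was 3.89 (SE 0.66, adjusted p 0.000978, 5 of 5 dogs).

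CCL20 calls in CCR6-bearing dendritic cells and T cells. Its untreated log2 signals lay between 8.84 and 10.51 with a median of 9.54, and at 24 hr the 5 dogs had 12.57, 13.19, 13.10, 12.13 and 13.91. The groups did not overlap, and CCL20 rose by 3.33 (SE 0.30, adjusted p 1.48e-05, 5 of 5 dogs). The monocyte chemoattractants CCL2 and CCL8 rose 9.24-fold and 7.81-fold, in 5 of 5 dogs each. CCL19, which guides CCR7-bearing dendritic and T cells, went from 8.78 ± 0.20 (SD, n = 6) to 11.91 ± 0.37 (SD, n = 5), a rise of 3.13 (SE 0.15, adjusted p 3.77e-07). CCL8 was read by 2 probes that both rose, by 0.80 and 2.97. The score of the whole list, its mean log2 signal relative to the untreated mean, was 1.45, 1.82, 1.29, 1.89 and 1.92 in the 24 hr arrays and -0.25 to 0.45 in untreated skin, so that each 24 hr array stood above each untreated one.

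**Figure D1:**
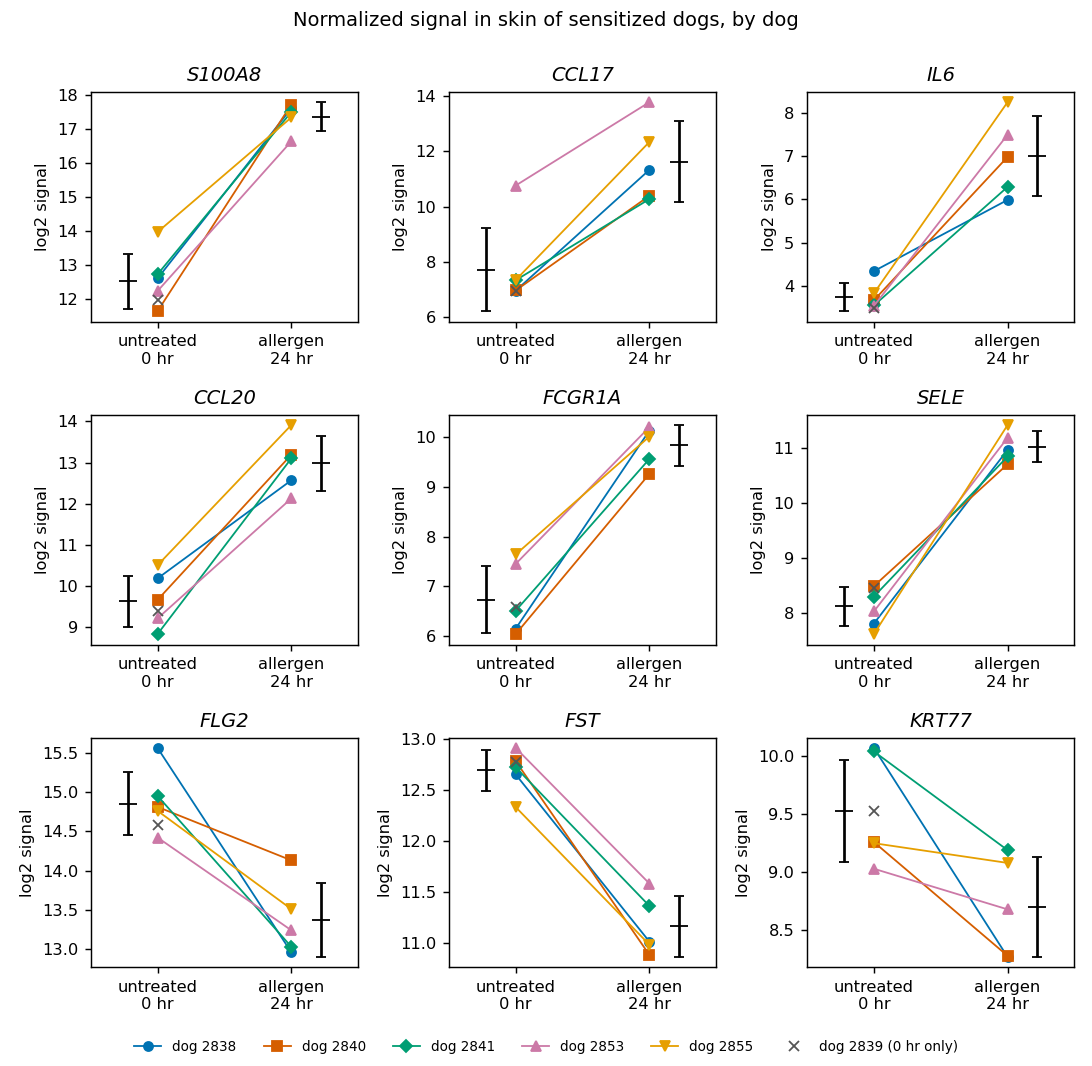
Log2 signal (vertical axes) of 9 genes in untreated skin and at the 24 hr allergen site, 1 line per dog, with group means and SDs as bars and dog 2839 present at 0 hr only. S100A8 sits between 16.63 and 17.71 at 24 hr against 11.65 to 13.97 untreated, while FLG2 lies lower at 24 hr in every pair.

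Interleukins and their receptors rose in 12 of 20 measured genes and fell in 1 (IL37), with a median of 0.78. With the session as a fixed block 9 rose and 0 fell, with a median of 0.48. The fall of IL37 (-1.35) lost its call with the slide as a fixed block too. Outside the study's list 6 of 11 rose. IL6, a cytokine of the acute phase, was not well above background on any untreated array and was so on all 5 arrays at 24 hr. Its log2 signals were 3.51 to 4.35 (median 3.62) untreated and 5.99, 6.98, 6.29, 7.49 and 8.24 at 24 hr, which amounts to an at least 5.89-fold rise over the dimmest values called well above background (adjusted p 2.78e-05, 5 of 5 dogs). IL13, a type 2 cytokine, behaved alike at the low end, with 0 untreated arrays and 5 of the 24 hr arrays well above background. The 24 hr signals of IL13 were 6.04, 5.19, 5.43, 8.03 and 7.38, against 3.49 to 4.57 (median 3.85) untreated, an at least 3.93-fold rise (adjusted p 0.000902, 5 of 5 dogs). Dogs 2853 and 2855 had the high values and the groups did not overlap.

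IL13RA2, the decoy receptor for IL13, rose from 5.67 to 6.03 (median 5.89) in untreated skin to 8.92, 8.08, 7.96, 9.54 and 8.92 at 24 hr. All 5 pairs moved up, and the rise was 2.81 (SE 0.22, adjusted p 5.84e-06). IL18BP, which binds and blocks IL18, rose 5.82-fold (adjusted p 1.29e-06) with pair differences from 2.25 to 2.64, a narrow spread. Downstream of such receptors only 3 genes of the JAK-STAT list were measured. SOCS3, a feedback inhibitor, rose by 1.40 and STAT3 by 0.72, both in 5 of 5 dogs, and PIM1 did not pass the test. SOCS3 had a second probe at -0.02, so that its rise rests on 1 probe.

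Genes of the TNF family and the nuclear factor kappa B pathway rose in 13 of 20 and fell in 0, with a median of 1.01, and outside the study's list 4 of 10 rose. PTX3, a soluble pattern recognition protein, had untreated signals of 5.18 to 5.49 (median 5.31) and 24 hr signals of 8.27, 8.65, 9.60, 8.94 and 9.90. The 2 ranges lie far apart, and the rise was 3.74 (SE 0.23, adjusted p 1.29e-06, 5 of 5 dogs). TNFAIP6, a hyaluronan-binding protein made in inflamed matrix, rose 10.5-fold, and BIRC3, an inhibitor of cell death, 7.09-fold. TNFSF9, a costimulator of T cells, rose 4.26-fold. Each of these 3 rose in 5 of 5 dogs without overlap between the groups.

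Myeloid markers rose without exception among those measured: all 11 of 11 macrophage and monocyte genes passed the test upward, by at least 0.79 and with a median of 1.72, and so did the 4 that are outside the study's list. FCGR1A, the high-affinity IgG receptor, had untreated signals of 6.04 to 7.64 (median 6.55), and 10.13, 9.26, 9.56, 10.20 and 10.01 at 24 hr. No untreated array came near the 24 hr range, and FCGR1A rose 8.58-fold (adjusted p 1.07e-05, 5 of 5 dogs). The mannose receptor MRC1 rose 5.37-fold, the chitinase-like CHI3L1 5.29-fold and the inhibitory IgG receptor FCGR2B 4.91-fold. The list's score was 1.97, 1.35, 1.61, 2.25 and 1.78 in the 24 hr arrays against -0.24 to 0.38 untreated, and its brightest gene was TYROBP. With the slide as a fixed block 8 of the 11 passed.

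Granulocyte markers rose in 4 of 7 measured genes, with a median of 0.74 and with S100A8 as the brightest. S100A8, a subunit of the calprotectin of neutrophils and stressed keratinocytes, had untreated signals of 11.65 to 13.97 (median 12.43) and reached 17.60, 17.71, 17.49, 16.63 and 17.33 at 24 hr. The lowest 24 hr value exceeded the highest untreated one by 2.66, and the rise was 4.80 (SE 0.32, adjusted p 2.39e-06, 5 of 5 dogs). The leukocyte integrin chain ITGB2 rose 3.03-fold (but by 0.66 on the log2 scale with the slide as a fixed block) and the gelatinase MMP9 2.89-fold. CCR3, the eotaxin receptor of eosinophils, was well above background on 3 of 6 untreated arrays and on all 5 at 24 hr. With dimmer values raised to the dimmest ones called well above background, CCR3 rose at least 1.55-fold (adjusted p 0.00737) with overlapping groups. Its difference was 0.21 with the slide as a fixed block, under the fold limit, and 0.61 with the session as a block (adjusted p 0.101). The remaining 3 measured genes, CXCR2 and ELANE among them, did not pass the test. The granulocyte score ran from 1.14 to 1.47 at 24 hr and from -0.41 to 0.31 untreated, and S100A8 carries much of it. Without S100A8 it ran from 0.47 to 1.03 at 24 hr and from -0.39 to 0.27 untreated, with a 24 hr mean of 0.72 in place of 1.31.

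T and NK cell markers rose in 5 of 10 and fell in none of them, with a median of 0.42 and CTLA4 as the brightest, and of the 6 outside the study's list 1 rose. CTLA4, a brake on T cell activation, had 8.26, 7.45, 8.37, 9.18 and 8.71 at 24 hr against 5.80 to 7.73 (median 6.53) untreated. Dog 2840 had the lowest 24 hr value and fell inside the untreated range, and the rise was 1.75 (SE 0.30, adjusted p 0.000918, 5 of 5 dogs). The costimulatory receptors ICOS and CD28 rose 3-fold and 1.94-fold, ICOS by 1.59 on the log2 scale and by 0.63 with the slide as a fixed block. LCK, the kinase of the T cell receptor, rose 1.77-fold (adjusted p 0.00373), but by 0.21 with the slide as a fixed block (adjusted p 0.16). CD4, CD8A, CXCR3, CCR4 and PRF1 did not pass the test. The T and NK score was 0.54, 0.30, 0.32, 0.88 and 0.63 at 24 hr and -0.17 to 0.28 untreated.

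Mast cell and IgE receptor genes rose in 5 of 6, with a median of 1.05, while KIT, the stem cell factor receptor of mast cells, did not pass the test. HDC, the enzyme that makes histamine, rose 2.91-fold (adjusted p 0.000199), and its 24 hr signals of 7.04, 7.39, 6.51, 8.01 and 7.56 all lay above the untreated range of 5.29 to 6.12 (median 5.75). Subunits of the high-affinity IgE receptor moved the same way: MS4A2, the beta chain, rose 2.62-fold, FCER1A, the alpha chain, 2.11-fold and FCER1G, the gamma chain, 2.04-fold. The mast cell score was 0.75, 0.95, 0.25, 1.35 and 1.19 at 24 hr, with dog 2841 inside the untreated range of -0.30 to 0.33. FCER1A was the brightest gene of this list.

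Dendritic and Langerhans cell markers rose in 5 of 7, with a median of 0.79, and none of the 7 is in the study's list. The other 2, CD1C (-0.37) and FLT3 (0.21), did not pass the test. With the slide as a fixed block the median of the list was 0.38. DLA-DRA, a class II chain, rose 2.72-fold and was the brightest, CD86, a costimulator of T cells, rose 2.35-fold, and the lipid-presenting CD1B and CD1A6 rose 1.91-fold and 1.73-fold. The call of CD1B was the least stable of these: its adjusted p was 0.0222, and the difference was 0.27 with the slide as a fixed block (adjusted p 0.397) and 0.59 with the session (adjusted p 0.144). Without dog 2853 CD1B gave 0.70 (adjusted p 0.0694) and without dog 2855 0.74 (adjusted p 0.119). With the slide as a fixed block CD86 differed by 0.41 (adjusted p 0.0107) and CD1A6 by 0.38 (adjusted p 0.0252), both under the 1.5-fold limit. The score of this list lay at 0.80, 0.32, 0.21, 1.29 and 0.99 in the 24 hr arrays and at -0.18 to 0.18 in the untreated ones.

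Antigen presentation genes rose in 15 of 17, with a median of 1.23, and outside the study's list in 8 of 10, while with the slide as a fixed block 11 of 17 passed. CIITA, the master regulator of class II genes, had untreated signals of 8.32 to 9.27 (median 8.74) and 24 hr signals of 11.03, 9.46, 10.18, 11.63 and 11.29. The groups did not overlap, dog 2840 was the lowest at 24 hr, and the rise was 1.91 (SE 0.30, adjusted p 0.000611, 5 of 5 dogs), but 0.70 with the slide as a fixed block (adjusted p 0.0143). The class II beta chain DLA-DQB1 rose 3.76-fold, the peptide-loading chain DLA-DMA 2.74-fold and the invariant chain CD74 2.73-fold. The score of the list split the dogs, with 1.34, 1.82 and 1.49 in dogs 2838, 2853 and 2855 and 0.60 and 0.57 in dogs 2840 and 2841, against -0.15 to 0.24 untreated. The first 3 of these dogs had their 24 hr array on slide 3 and the other 2 on slides 8 and 2, and the part of the slide in this split was not tested.

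Interferon response genes rose in 8 of 9, with a median of 1.06, and outside the study's list 7 of 8 rose. PSMB8, a subunit of the immunoproteasome, rose 3.22-fold, the antiviral enzymes OAS1 and OAS2 rose 2.98-fold and 2.58-fold, and the chemokine CXCL10 rose 2.86-fold. All 4 rose in 5 of 5 dogs without overlap. OAS3 did not pass the test.

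Of the genes of endothelial activation 5 of 16 rose and none of the others fell past the limits, with a median of 0.38. Outside the study's list 1 of 12 rose, with a median of -0.12. SELE, the selectin that slows leukocytes on the vessel wall, had untreated signals of 7.62 to 8.49 (median 8.16), a mean of 11.02 ± 0.28 (SD, n = 5) at 24 hr, and differences of 3.15, 2.21, 2.55, 3.16 and 3.78 in the 5 pairs. This was among the tightest separations, with a rise of 2.91 (SE 0.17, adjusted p 1.29e-06, 5 of 5 dogs), and the second SELE probe rose by 0.80. SELPLG, the selectin ligand of leukocytes, was well above background on no untreated array and on all 5 at 24 hr, an at least 3.09-fold rise (adjusted p 0.000395). The other 11 did not pass the test. Of the lineage markers of endothelium only 2 were measured: VWF fell 1.68-fold and KDR, a receptor for VEGF, rose 1.53-fold. Neither held with the slide as a fixed block, where VWF differed by -0.56 (adjusted p 0.00829) and KDR by 0.44 (adjusted p 0.0205), both short of 1.5-fold. With the session as a block VWF differed by -0.36 (adjusted p 0.165) and KDR by 0.60 (adjusted p 0.016). Short of 1.5-fold too were VWF without dog 2841 (-0.54, adjusted p 0.0288) and KDR without dog 2855 (0.57, adjusted p 0.008).

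Among matrix proteases and their inhibitors 7 of 12 rose, with a median of 0.87, and outside the study's list 4 of 8 rose. ADAMTS4, which cleaves aggrecan and versican, rose 7.66-fold, and TIMP1, an inhibitor of metalloproteinases, 5.69-fold, both in 5 of 5 dogs without overlap. Complement and acute phase genes rose in 6 of 7, with a median of 1.65, and 5 of the 7 are in the study's list. The anaphylatoxin receptor C5AR1 rose 4.84-fold, properdin (CFP) 3.15-fold and C3 3.14-fold, C3 with overlapping groups. HAMP did not pass the test.

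Antimicrobial genes rose in 4 of 6, with a median of 0.81. Beside S100A8 these were BPI (2.11-fold), which binds bacterial lipopolysaccharide, the protease inhibitor SLPI (1.85-fold) and the beta defensin CBD103 (1.66-fold). CBD103 fell short of the fold limit without dog 2840 (0.52, adjusted p 0.0115), whose pair had the largest difference, 1.58 against 0.22 to 0.79 in the others. BPI differed by 0.58 with the slide as a fixed block, just under the fold limit (adjusted p 0.0385).

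Prostanoid genes moved both ways, with 3 of 9 up and 2 down (PTGDS and HPGD, the latter by 0.63) and a median of 0.46. Neither fall kept its call with the slide or with the session as a fixed block. PTGES, which makes prostaglandin E2, rose 2.78-fold, PTGS2, the inducible cyclooxygenase, 2.63-fold, and the receptor PTGER2 1.72-fold, the last not with the session as a block (0.58, adjusted p 0.11). PTGDS, the prostaglandin D synthase, fell by 1.24 on the log2 scale (adjusted p 0.0027) in 5 of 5 dogs. The fall of PTGDS was smallest in dog 2840, the dog with both arrays on 1 slide, at -0.55 against -1.20 to -1.72 in the other 4 dogs. With the slide as a fixed block PTGDS differed by -0.46 (adjusted p 0.0248) and with the session by -0.81 (adjusted p 0.0705).

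The cornified envelope, the protein shell of the outermost epidermis, had 6 of 14 measured genes lower and 0 higher, with a median of -0.49, and with the slide as a fixed block 6 were lower and 1 higher. All 6 that fell are in the study's list, and of the 4 outside it none passed the test in limma, with a median of -0.07. FLG2, a filaggrin-like protein of the granular layer, had untreated signals of 14.42 to 15.56 (median 14.79) and 24 hr signals of 12.96, 14.13, 13.03, 13.24 and 13.51. Every 24 hr array lay below every untreated one, dog 2840 being the nearest, and FLG2 fell by 1.48 on the log2 scale (SE 0.22, adjusted p 0.000399, lower in 5 of 5 dogs), and by 0.66 with the slide as a fixed block. LORICRIN, the bulk protein of the envelope, had 7.28, 8.02, 8.36, 7.01 and 7.73 at 24 hr against 8.01 to 9.05 (median 8.85) untreated. These groups overlapped slightly, and LORICRIN fell by 1.06 on the log2 scale (SE 0.22, adjusted p 0.00303) in 5 of 5 dogs. DMKN, a secreted product of suprabasal cells, fell by 1.00 and SCEL, a precursor of the envelope, fell by 0.93 on the log2 scale, SCEL not past the fold limit with the slide as a fixed block (-0.39, adjusted p 0.0181). KRTDAP was the brightest gene of the list and did not pass the test.

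Keratins of keratinocytes fell in 2 of 4, with a median of -0.53, while KRT1 and KRT2, keratins of the suprabasal layers, did not pass the test. The 2 that fell are in the study's list, and the 2 outside it had a median of -0.15. KRT15, a keratin of basal and follicular stem cells, fell 2.29-fold (adjusted p 2.19e-05) without overlap between the groups. KRT77 had 8.27, 8.28, 9.19, 8.68 and 9.08 at 24 hr and 9.03 to 10.07 (median 9.39) untreated, so that dogs 2841 and 2855 lay within the untreated range. KRT77 fell by 0.83 on the log2 scale (SE 0.22, adjusted p 0.0106) in 5 of 5 dogs.

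Of the desmosome and junction genes 3 of 11 fell and 0 rose, with a median of -0.21. Outside the study's list 1 of 7 fell (CLDN3), with a median of -0.02. CGN, the adaptor cingulin of tight junctions, fell by 0.87 on the log2 scale (adjusted p 0.000503) and OCLN, the tight junction protein occludin, fell by 0.64 (adjusted p 0.000343), each in 5 of 5 dogs. Without dog 2838 OCLN differed by -0.54 (adjusted p 0.00138), short of the fold limit. A second CGN probe, at -0.35, did not pass. CLDN3, a claudin, fell by 0.92 (adjusted p 0.00762), but the pair on 1 slide gave -0.03, and CLDN3 differed by -0.06 with the slide as a fixed block (adjusted p 0.582) and by -0.38 with the session (adjusted p 0.0528). The other 8, with DSP as the brightest of the list, did not pass the test.

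**Figure D2:**
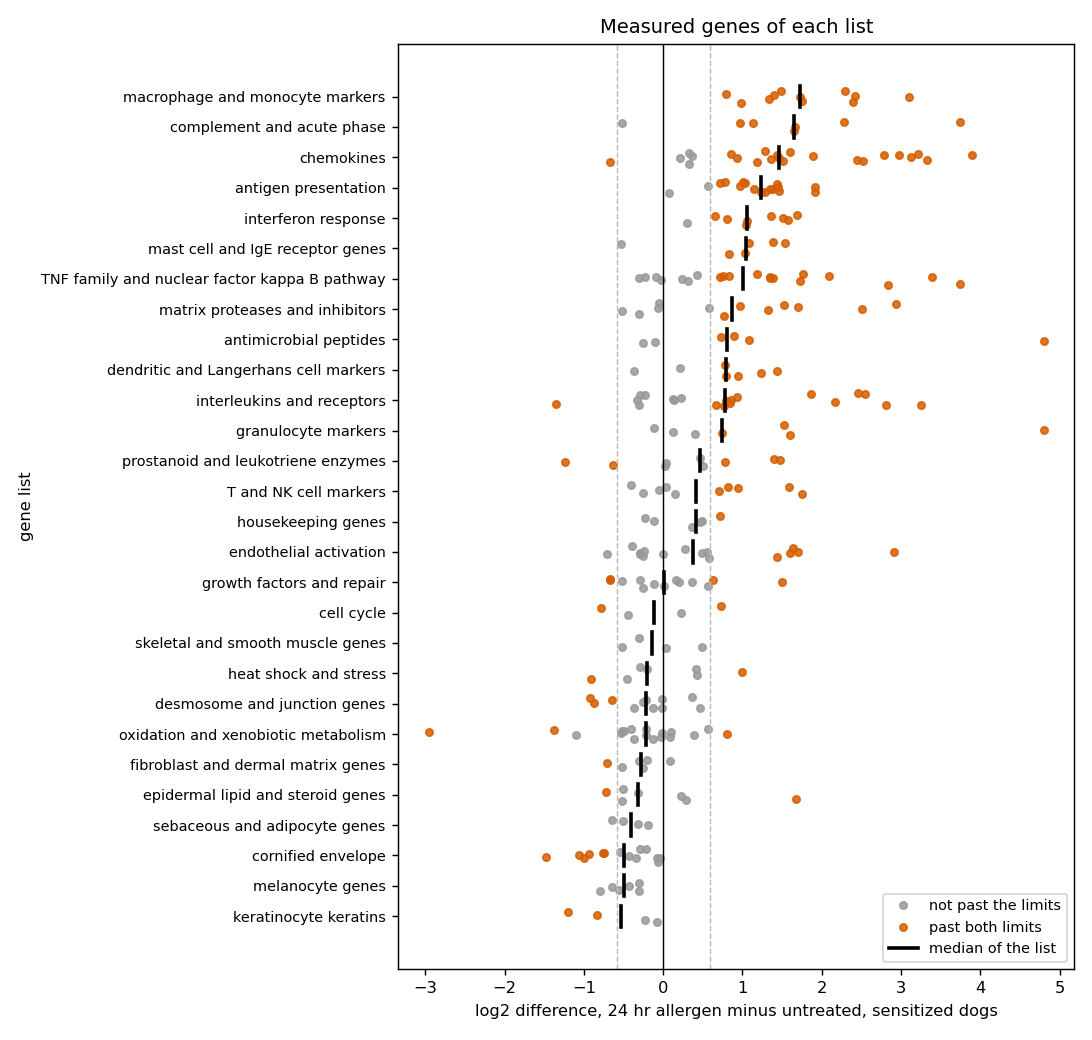
Log2 differences (horizontal axis) of the measured genes of each list with at least 4 genes tested, 1 point per gene, coloured where the gene passed both limits, with the list's median as a bar. Macrophage and monocyte markers have a median of 1.72 and the cornified envelope one of -0.49, against -0.03 over all probes.

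Other falls belonged to enzymes and regulators. AOX4, a skin aldehyde oxidase, had 9.40, 10.14, 7.85, 9.84 and 7.05 at 24 hr against 11.25 to 12.86 (median 11.65) untreated. The dogs differed widely, from -1.47 in dog 2840 to -4.20 in dog 2855, and the fitted difference was -2.95 (SE 0.46, adjusted p 0.000535, 5 of 5 dogs). AOX4 differed by -1.39 with the slide as a fixed block and lost its call (adjusted p 0.053). CA3, a carbonic anhydrase, fell by 1.91 on the log2 scale, stood at -0.30 in dog 2840, and gave -0.25 with the slide (adjusted p 0.354) and -1.38 with the session as a block (adjusted p 0.0654). FMO2, a flavin monooxygenase, fell by 1.38 and gave -0.57 with the slide as a block (adjusted p 0.0526). GAL3ST1, a sulfotransferase of glycolipids, fell by 1.43 and gave -1.31 with the session as a block (adjusted p 0.0521) and -0.94 with the slide. It was well above background on 3 of 5 arrays at 24 hr, so that its fall rests in part on signals near the floor. In the whole list of oxidation and xenobiotic metabolism 2 of 18 fell (AOX4 and FMO2) and 1 rose (GPX2, a glutathione peroxidase, 1.76-fold), with a median of -0.22.

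FST, the activin antagonist follistatin, had signals of 11.01, 10.88, 11.36, 11.58 and 10.98 at 24 hr against 12.33 to 12.91 (median 12.75) untreated, with no overlap. It fell by 1.53 on the log2 scale (SE 0.13, adjusted p 1.04e-05) and all 4 of its probes fell, with differences from -1.53 to -1.05. The neuronal adhesion protein SLITRK6 fell by 1.63 and PIK3IP1, an inhibitor of phosphoinositide 3-kinase, fell by 1.44. The lipid transfer protein PITPNM3 fell by 1.44 and DEPTOR, an inhibitor of the mTOR kinase, fell by 1.28. The zinc finger gene ZNF704 fell by 1.25 and the mitochondrial carrier SLC25A27 fell by 1.24. Of the 14 largest falls 10 had no overlap between the groups, these 6 genes among them, a share that the choice of genes raises.

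Among the largest rises 1 gene is an enzyme of amino acid metabolism, SDSL, a serine dehydratase-like protein. Its signals were 4.19 to 5.50 (median 4.40) in untreated skin, with 2 of 6 arrays well above background, and 8.39, 8.44, 8.73, 7.20 and 8.02 at 24 hr. With dimmer values raised to the dimmest ones called well above background, SDSL rose at least 11.3-fold (adjusted p 3.68e-06), in 5 of 5 dogs without overlap. In the list of epidermal lipid and steroid genes 1 of 7 rose and 1 fell, with a median of -0.32. HSD11B1, which regenerates active glucocorticoid, rose 3.19-fold and PPARA, a lipid-sensing receptor, fell by 0.72 on the log2 scale, with 1 of its 3 probes past the limits.

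**Figure D3:**
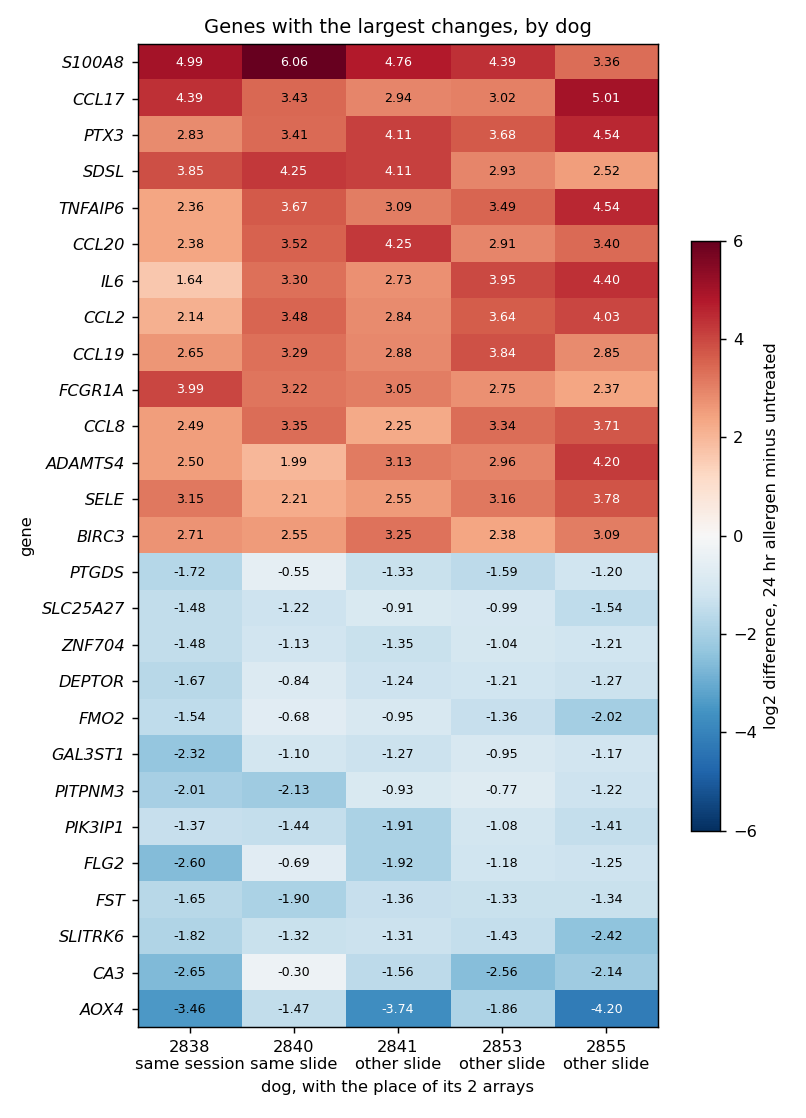
Log2 difference between the 24 hr allergen array and the untreated array of each of 5 dogs (columns) for the 14 named genes with the largest rises and 13 of the 14 with the largest falls (vertical axis), with the value in each cell and colour from blue (lower) to red (higher). S100A8 runs from 3.36 to 6.06 over the dogs, and dog 2840, whose 2 arrays share a slide, shows -0.30 for CA3.

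The remaining lists moved little or both ways. Growth factor and repair genes had 2 of 13 up and 2 down with a median of 0.01: the epithelial growth factor FGF10 rose 2.82-fold and the receptor TGFBR2 1.54-fold, while the receptors FGFR2 and ERBB2 each fell by 0.67 on the log2 scale. ERBB2 was higher in 1 of 5 pairs, and its difference was -0.31 with the session as a block (adjusted p 0.265), while FGFR2 reached -0.56 with the slide (adjusted p 0.00308), short of the fold limit. ERBB2 also lost its call without dog 2841 (-0.51, adjusted p 0.0511) or 2853 (-0.65, adjusted p 0.0502), and TGFBR2 without dog 2841 (0.56, adjusted p 0.00333). In the cell cycle list MYC rose 1.66-fold and the inhibitor CDKN1B fell by 0.78, 1 of 4 each way, with a median of -0.11. MYC gave 0.56 with the slide (adjusted p 0.0163) and 0.54 with the session (adjusted p 0.0382), and CDKN1B -0.42 with the slide (adjusted p 0.00346), all under 1.5-fold. Stress genes had a median of -0.20, with the chaperone HSPA5 up 1.99-fold, though by 0.37 with the slide as a block (adjusted p 0.0257), and the vasodilator peptide gene ADM down with a difference of -0.91, 1 of 7 each. Of 3 clock genes RORA fell by 0.77, with 1 of its 3 probes past the limits, and BHLHE40 rose 1.5-fold, with a median of -0.31. BHLHE40 sat at the fold limit and was under it without dog 2840 (0.52, adjusted p 0.000947) or 2855 (0.58, adjusted p 0.00871).

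Markers of structural and appendage cells mostly did not pass the test. Of 6 fibroblast and dermal matrix genes 1 fell (COL1A1, by 0.71 on the log2 scale at its brightest probe, while its other 3 probes did not pass), with a median of -0.28, and the brightest was COL1A2. Their score was -0.12, -0.28, -0.62, -0.21 and -0.32 at 24 hr against -0.12 to 0.20 untreated. None of 6 melanocyte genes passed with the dog as a random block (median -0.49, TYRP1 -0.79 with adjusted p 0.0774, PMEL -0.64 with adjusted p 0.142), though both did without dog 2839 (-0.93 and -0.85, adjusted p 0.0412 and 0.0317). With the dog as a fixed block, on the 5 pairs, 3 of the 6 melanocyte genes were lower, TYRP1 by 0.93 (adjusted p 0.00318) and PMEL by 0.85 (adjusted p 0.00846) among them. Of 4 sebaceous and adipocyte genes none passed in limma (median -0.41, ADIPOQ -0.64 with adjusted p 0.175, CD36 -0.50 with adjusted p 0.143). In the 4 muscle genes the median was -0.14, with MYH1 at 0.49 (adjusted p 0.0727) and MYH8 at -0.31 (adjusted p 0.619), and dog 2841 stood out with a score of 0.84 against -0.58 to -0.06 in the other 24 hr arrays. For the 2 hair follicle genes SOX9 gave -0.57 (adjusted p 0.0391, below the fold limit) and KRT71 0.33 (adjusted p 0.485). On slide 8, as the slide block reads it, both passed downward, SOX9 with -0.66 (adjusted p 0.00548) and KRT71 with -1.58 (adjusted p 0.000289), against the sign of its 0.33. SOX9 passed without dog 2838 (-0.75, adjusted p 0.0177), KRT71 without dog 2840 (0.81, adjusted p 0.0166) and MYH8 without dog 2841 (-0.78, adjusted p 0.0114). SREBF1 was the 1 gene measured of the cholesterol and fatty acid list, at -0.27 (adjusted p 0.0728). No gene of the B cell and the red cell lists passed the filter on dim probes, so those lists give no value. Of 6 housekeeping genes HPRT1 rose 1.65-fold (adjusted p 6.05e-05, 5 of 5 dogs), by 0.50 with the slide as a block (adjusted p 0.00126), and the median of that list was 0.42, while the median over all probes was -0.03.

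The saline site of the same dogs at 24 hr lies nearer to the allergen site in handling than untreated skin does. Against that site 243 identifiers were higher at the allergen site (0.599%) and 106 were lower (0.261%) of 40566 (limma on 59 arrays). These counts moved much: 75 and 43 with no dog block, and higher ones of 91, 151, 161 and 380 without dogs 2855, 2838, 2839 and 2840. Lower ones were 69 without dog 2855 and 168 without dog 2853. Of the 14 genes with the largest rises, 4 were higher than at the saline site: S100A8 by 2.45 (adjusted p 0.00668), CCL17 by 2.88 (adjusted p 0.000212), SDSL by 2.37 (adjusted p 1.29e-05) and SELE by 1.52 (adjusted p 0.0133). For the other 10 the difference from saline did not pass the test, which does not show that the sites were alike. All 10 were also past both limits upward at the saline site against untreated skin (limma on 59 arrays). These saline rises ran from 1.59 (BIRC3) to 4.76 (PTX3), with CCL2 at 3.05 and CCL19 at 2.61. At the allergen site CCL2 rose by 3.21 and CCL19 by 3.13. S100A8 (2.38), SDSL (1.24) and SELE (1.37) passed at the saline site too, and CCL17 did not (1.05, adjusted p 0.0562). PTX3 had a mean of 10.09 at the saline site, 9.07 at the allergen site and 5.33 untreated, and TNFAIP6 had 10.91, 11.00 and 7.62 in that order. The complement score averaged 1.51 at the saline site and 1.56 at the allergen site, or 0.97 and 1.20 without PTX3. The granulocyte score averaged 0.56 and 1.31 in that order, or 0.25 and 0.72 without S100A8.

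The study's list was drawn from a contrast that includes allergen minus saline at 24 hr in these dogs, so that values of its genes against saline are a description and no independent test. Among named genes in that list 56 of 445 were higher than at the saline site (12.6%) and 35 lower (7.87%), and outside it 11 of 820 were higher (1.34%) and 1 lower (0.122%). Past both limits against the saline site were 5 of 20 interleukins and receptors upward and 1 downward, and 3 of 10 T and NK cell markers upward, or 2 of 11 and 1 of 6 upward outside the list. Only 3 of 23 chemokines, 2 of 20 TNF family and nuclear factor kappa B genes and 1 of 7 dendritic cell markers were higher there. None passed of 6 mast cell and IgE receptor, 9 interferon response and 7 complement and acute phase genes. The mast cell score averaged 0.55 at the saline site and 0.90 at the allergen site. IL13 was 1.24 higher at the allergen site (adjusted p 0.0308), IL13RA2 1.01 higher (adjusted p 0.00321), IL18BP 1.45 higher (adjusted p 0.0194), ICOS 1.13 higher (adjusted p 0.000432), CTLA4 1.00 higher (adjusted p 0.0205) and CIITA 1.21 higher (adjusted p 0.00599). Among antigen presentation genes 9 of 17 were higher than at the saline site, DLA-DRA not being one of them (0.71, adjusted p 0.0564), and among macrophage and monocyte markers 0 of 11 in limma. With the slide as a block in the 59-array fit these counts were 11 and 3, DLA-DRA (0.68, adjusted p 0.0499) and MRC1 (0.73, adjusted p 0.0257) then passing, and with the session 7 and 0. Outside the list 3 of 10 antigen presentation genes were higher. Of the cornified envelope genes 6 of 14 were lower than at the saline site, of the desmosome and junction genes 1 of 11 and of the keratins 1 of 4, all of them in the study's list. Outside it 0 of 4, 0 of 7 and 0 of 2 passed in limma, with medians of -0.09, -0.07 and -0.15. LORICRIN averaged 9.00 at the saline site, 7.68 at the allergen site and 8.74 untreated, and differed from saline by -1.27 (adjusted p 0.000656). FLG2 differed by -1.21 (adjusted p 5.02e-05), KRT77 by -1.15 (adjusted p 0.00156), DMKN by -0.69 (adjusted p 0.00205) and CGN by -0.69 (adjusted p 0.00117). CGN lost its call with the slide as a fixed block (-0.52, adjusted p 0.0157). OCLN (-0.37, under the fold limit), KRT15 (-0.36, adjusted p 0.108) and CLDN3 (-0.09, adjusted p 0.875) did not pass. Of the 14 largest falls 8 were lower than at the saline site, AOX4 by the most with -2.18 (adjusted p 4.58e-05).

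The change in sensitized dogs was compared with that in nonsensitized dogs through the difference between the changes, which shares no array between the 2 changes. That difference was positive for 1241 of 40936 identifiers (3.03%) and negative for 1374 (3.36%) in limma on 59 arrays. The slide and the session differ between the 2 kinds of dogs as well: the 24 hr allergen arrays of nonsensitized dogs lay on slides 1, 2 and 3, with 5 of 6 in session 1, and those of sensitized dogs on slides 2, 3 and 8, with 3 of 5 in session 2. There were 107 positive and 85 negative identifiers with the slide as a fixed block, and 316 and 373 with the session, both added after the data were seen. Without dog 2838, 2840 or 2841 the positive ones were 691, 714 or 2733, without dog 2840 the negative ones were 915, and with no dog block 297 were positive and 512 negative. Of the genes with the largest changes, 12 of 14 rises and 13 of 14 falls differed without such a block, 2 and 8 with the slide, and 6 and 11 with the session. These genes were chosen by their change in sensitized dogs, which is a part of the difference, and 10 of the rises and 11 of the falls are in the study's list, so that the choice itself raises these counts. S100A8 rose by 1.75 in nonsensitized dogs (adjusted p 0.0039), and the difference between the changes was 3.07 (adjusted p 0.00733), or 3.31 with the slide (adjusted p 0.0761). PTX3 stood 0.56 higher in nonsensitized dogs (adjusted p 0.314), with a difference of 3.17 (adjusted p 0.0027). CCL17 rose by 1.86 in nonsensitized dogs (adjusted p 0.000543), and the difference was 2.07 (adjusted p 0.032), which lost its call with the slide (1.41, adjusted p 0.352) and the session (1.48, adjusted p 0.252). The genes that did not pass were CCL2 (1.38, adjusted p 0.0888), ADAMTS4 (1.75, adjusted p 0.135) and PTGDS (-0.44, adjusted p 0.32). KRT77 rose by 0.66 in nonsensitized dogs (adjusted p 0.00732), opposite to its fall in sensitized dogs, and the difference was -1.44 (adjusted p 0.00296), or -1.34 with the slide (adjusted p 0.0642). LORICRIN stood 0.40 higher in nonsensitized dogs (adjusted p 0.112), with a difference of -1.40 (adjusted p 0.00387), or -1.36 with the slide (adjusted p 0.07).

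Calls made without a dog were read in the pair of that dog, a check added after the data were seen. For the higher probes 98%, 83.2%, 98.8%, 99.4% and 99% had the same direction in dogs 2838, 2840, 2841, 2853 and 2855. For the lower probes these shares were 70%, 76.1%, 93.9%, 98.5% and 99.3%, so that the 2 dogs with both arrays in 1 session were the 2 with the least. The median difference of the lower probes was -0.19 in dog 2838 and -0.34 in dog 2840, and from -0.72 to -0.80 in the other 3 dogs. For the higher probes it was 0.44 in dog 2840, on 1 slide, and 0.72 to 0.94 in the others. On slide 8 alone, with dog 2840 at 24 hr and 3 untreated arrays, S100A8 was 5.50 higher, CCL2 4.11 and SELE 2.43, and FST stood at -1.92 and FLG2 at -0.60. With the session as a fixed block, also added after the data were seen, 2219 identifiers were higher and 1703 lower, against 3031 and 2812 without it. The slide as a fixed block gave 3963 higher and 3973 lower ones. Of the 67 rises and 30 falls among the genes tabulated, 10 rises and 9 falls lost their call with the slide, and 4 rises and 6 falls with the session. The log2 difference was smaller by over 1.5 times for 14 rises and 9 falls with the slide, and for 1 rise and 4 falls with the session. The slide values read dog 2840 alone on the 24 hr side.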

How the data were processed

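Skin RNA of 60 biopsies was hybridized singly to Agilent canine arrays in 1 colour. The intensity values are deposited processed signals, which the authors made with Feature Extraction 10.7.3.1 (background subtraction, no scaling between arrays), and the series table held identical values. Other deposited columns used are spot flags and median intensity values of spots and local background, the latter for 1 alternative. Of 61657 spots that are not controls, outlier spots were set to missing. The signals of 59 arrays were normalized by variance stabilization, whose model was reimplemented because the package was not installed and was checked by a simulation. Values of replicate spots were averaged, and a probe was tested when 5 or more arrays of either side had it well above background (45230 of 60068 probes).

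Arrays were grouped by the labels, and the dog number gave the pairs. limma 3.58.1 (statmod 1.5.0, R 4.3.3) compared the 11 arrays with the dog as a random block (correlation 0.1402). The differences from nonsensitized dogs and from the saline site came from a fit of 10 group means on 59 arrays. Tests were two-sided and adjusted by Benjamini and Hochberg over all probes of a comparison. Calls needed an adjusted p below 0.05 and 1.5-fold, counted by identifier, or for a gene by its brightest tested probe. Tables were made in Python 3.11.15 with pandas 2.3.3 and numpy 2.4.6, the normalization with scipy 1.17.1 and figures with matplotlib 3.10.9. The number of arrays limits the precision.

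Identifiers were paired with symbols through a RefSeq table of assembly UU_Cfam_GSD_1.0 (1069 by accession) and the study's supplementary list and primer table (names only), 1583 identifiers and 1442 genes in all. Naming was revised after values had been seen: names with more than 1 candidate gene or of a readthrough were dropped, which took SERPINA3, KRT13 and CCL14-CCL15 from the largest changes and brought in FST among others, a duplicate of DLA-DMA was merged, and older symbols such as LOR were brought up to date.

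The comparison, the 35 gene lists and the tests were chosen with earlier results of these data known. Genes named in the text are from among the 14 largest rises and 14 largest falls among named genes past both limits and moved the same way in 5 of 5 dogs, without symbols of the LOC kind, and from each list up to 4 with the largest changes past the limits, or the 2 brightest where none passed. Other list members are named where a remainder is stated, and were picked after their values were seen. Alternatives were other pairings, all arrays in the fit, 75th percentile and quantile scaling, normexp (offset 50), no filter and a stricter one, the slide as a block, the 24 hr array of dog 2839 included, each dog left out, no fold limit, probes counted and the mean over probes. The scan session as a block, the slide as a block in the 59-array fit and calls read in the left-out dog were added after the data were seen. The 6 hr arrays and the nonsensitized saline sites enter the 59-array fits only, and the clinical scores, cell counts and qPCR values were not used here.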

Additional observations from a re-analysis of the deposited data

Results flagged for a closer look

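For some genes 1 array lay far from the others of its group, with a gap to the nearest array that was a large share of the group's whole range. This was so for 19 of 212 groups examined. These groups share the same arrays, and the number that chance would give was not tested. In untreated skin these were CCL17 (dog 2853, highest at 10.76, nearest 7.34, ratio 0.896), SDSL (dog 2855, highest at 5.50, nearest 4.61, ratio 0.679), AOX4 (dog 2838, highest at 12.86, nearest 11.85, ratio 0.627), ZNF704 (dog 2853, highest at 9.81, nearest 9.46, ratio 0.671), MRC1 (dog 2853, highest at 8.92, nearest 8.58, ratio 0.645), KRT15 (dog 2841, highest at 9.01, nearest 8.59, ratio 0.800), OCLN (dog 2838, highest at 7.98, nearest 7.77, ratio 0.693), HSD11B1 (dog 2839, highest at 9.37, nearest 8.67, ratio 0.849) and SREBF1 (dog 2838, lowest at 9.49, nearest 9.83, ratio 0.646). At the 24 hr allergen site they were SLITRK6 (dog 2855, lowest at 6.66, nearest 7.76, ratio 0.769), PTGDS (dog 2840, highest at 9.94, nearest 8.53, ratio 0.770), VWF (dog 2841, lowest at 14.05, nearest 14.67, ratio 0.784), KDR (dog 2853, highest at 9.38, nearest 9.13, ratio 0.753), PMEL (dog 2855, lowest at 12.03, nearest 13.11, ratio 0.804), MYH1 (dog 2855, highest at 7.81, nearest 6.64, ratio 0.765), MYH8 (dog 2841, highest at 8.68, nearest 5.84, ratio 0.854), PTGER2 (dog 2853, highest at 5.80, nearest 5.27, ratio 0.749), CGN (dog 2840, lowest at 11.68, nearest 12.34, ratio 0.864) and HSPA5 (dog 2840, lowest at 12.30, nearest 12.84, ratio 0.814). Dog 2853 supplied 5 of these arrays, dog 2855 supplied 4, dogs 2838, 2840 and 2841 supplied 3 each and dog 2839 supplied 1. MYH8 and MYH1 code for muscle myosins, and PTGDS, CGN and HSPA5 were far from the rest in dog 2840, the dog with both arrays on 1 slide. What sets these arrays apart was not tested.

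The change from untreated skin to the 24 hr allergen site differed past both limits between sensitized and nonsensitized dogs for 58 of the 106 genes whose values were tabulated. The values are log2 changes in sensitized minus those in nonsensitized dogs. The largest positive differences were PTX3 3.17, S100A8 3.07, SDSL 2.86, TNFAIP6 2.62, IL6 2.47, CCL20 2.38, CCL17 2.07, IL18BP 2.02, CCL8 1.93, SELE 1.91, BIRC3 1.86 and CHI3L1 1.84. They were followed by FCGR1A 1.79, FCGR2B 1.58, SOCS3 1.49, TIMP1 1.46, IL13RA2 1.32, MRC1 1.30, CCL19 1.27, ICOS 1.27, CIITA 1.23, CTLA4 1.11, HDC 1.10, PTGES 1.09, ITGB2 1.05 and TNFSF9 1.04. Positive differences under 1 were those of PSMB8 0.98, CD74 0.98, DLA-DQB1 0.97, FGF10 0.97, HSD11B1 0.91, DLA-DRA 0.88, DLA-DMA 0.87, MS4A2 0.77, BHLHE40 0.63, CD28 0.60 and HSPA5 0.60. Negative differences, a lower change in sensitized dogs, included AOX4 -2.57, FMO2 -1.82, SLITRK6 -1.74, PITPNM3 -1.52, KRT77 -1.44, LORICRIN -1.40, GAL3ST1 -1.27, CA3 -1.27, FST -1.17, PIK3IP1 -1.12, FLG2 -1.05, SLC25A27 -1.03 and RORA -1.02. Smaller ones were CGN -0.95, DEPTOR -0.91, SCEL -0.87, KRT15 -0.78, ZNF704 -0.76, DMKN -0.75 and PPARA -0.66. Of the 106 genes 12 differed with the slide as a fixed block and 32 with the session, and slide and session are unevenly spread over the 2 kinds of dogs. IL6 was well above background on no untreated array of either kind of dogs and on 1 of the 6 nonsensitized 24 hr arrays. SDSL was so on 2 and 3 of the untreated ones, and GAL3ST1 on 3 of the 5 sensitized 24 hr allergen arrays. The values and places of these genes rest on signals near the floor. Because many of these genes are in the study's list of DEG, drawn from a contrast of allergen minus saline between the 2 kinds of dogs, their number is no independent evidence.

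The 24 hr allergen array of dog 2839, left out of all results above, was read after a separate variance stabilization of all 60 arrays. Its values were set against the untreated values of that fit and are not strictly on the scale of those above. On that array 14 of the 14 genes with the largest rises stood above every untreated array, and 14 of the 14 with the largest falls stood below every untreated array. These genes were picked for large changes in the other dogs. The share of all probes outside the untreated range on that array is not given, so that the counts have no background. Its share of spots well above background was 67.65%. Over all genes tabulated, 57 of 67 rises lay above and 3 below every untreated array, and 27 of 30 falls lay below and 1 above. Of the 9 genes not past both limits 5 lay below (KRT71 5.86, PMEL 11.08, TYRP1 8.18, MYH8 5.49 and ADIPOQ 11.45) and 1 above. KDR, a called rise, lay below with 7.89, and CTLA4 was within the untreated range with 6.90. S100A8 reached 18.51 and FLG2 12.17 on that array. Its RNA was degraded, and the part of that in these values was not tested.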

How the results depend on the processing

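The count of higher identifiers (3031) stayed within 1.5 times under all alternatives but 3: 1902 with normexp and quantile scaling, 4720 with no filter and 7593 with no fold limit. The count of lower identifiers (2812) did so but for 5915 with 75th percentile scaling, 1703 with the scan session as a fixed block and 7527 with no fold limit. Leaving out 1 dog gave 2626 to 3641 higher and 1922 to 3706 lower identifiers. With no filter, 54633 identifiers were tested in place of 40566, and the median over all probes moved by 0.13 to 0.10.

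The counts from the 59-array fits moved more. For the difference from nonsensitized dogs (1241 positive, 1374 negative) there were 297 and 512 with no dog block and 3115 and 2560 with the array of dog 2839 included. Leaving out 1 sensitized dog gave 691 (without dog 2838) to 2733 (without dog 2841) positive and 915 (without dog 2840) to 2021 negative ones, and without dog 2840 the positive ones were 714. Against the saline site (243 higher, 106 lower) there were 75 and 43 with no dog block, 672 and 731 with the array of dog 2839 included, and 162 lower with 75th percentile scaling. Leaving out 1 dog gave 91 (without dog 2855) to 380 (without dog 2840) higher and 69 (without dog 2855) to 168 (without dog 2853) lower ones, with 151 higher without dog 2838 and 161 without dog 2839. With the slide as a fixed block, added after the data were seen, there were 107 positive and 85 negative differences from nonsensitized dogs and 473 higher against saline, and with the session 316 positive and 373 negative. The cause was not tested.

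Of 97 named genes past both limits, calls were lost for 19 with the slide and 10 with the session as a fixed block, 8 with normexp, 5 with the array of dog 2839 included and at most 3 under each of the others. No called gene changed its sign. KRT71, not past the limits at 0.33, had -1.58 with the slide as a fixed block, an estimate from the slide that holds both sides; the cause was not tested. Among the dim genes 19 identifiers counted as higher had no untreated array well above background and 5 counted as lower had no such 24 hr array. Slides and sessions are nearly nested in the 2 sides, and only 5 pairs were available.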
